A study of Rattus norvegicus with 20 samples.

Results

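The mitochondrial ribosomal protein genes are the nuclear genes with the symbols Mrpl (large subunit) or Mrps (small subunit) followed by a number. Every gene with such a symbol in the annotation of the Rat Genome 230 2.0 array was taken, and each was read from its probe set with the highest mean log2 mRNA. This gave 73 genes of the 14217 genes that the array measures with a probe set of a single gene. Of them, 48 belong to the large subunit and 25 to the small one. The 73 genes hold 97 probe sets, and 18 genes have 2 or more.

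The data were 20 expression arrays from the left ventricle of the Dahl rat, a strain in which dietary salt raises blood pressure, with 10 arrays for a normal heart and 10 for a failed heart. In each heart 1 array measured mRNA, 1 measured genomic DNA before immunoprecipitation (pre-IP), and 8 measured DNA recovered by chromatin immunoprecipitation (ChIP) with antibodies to acetylation of histone H3 (H3ac) and of histone H4 (H4ac) and to K4me2, K4me3, K9me2, K9me3, K20me3 and K27me2. The labels do not name the histone of the 6 methylated lysines. A single left ventricle specimen served each experiment, so each group is 1 array, nothing below has a replicate error, and no difference could be tested.

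The labels describe both mRNA samples as left ventricular myocytes and the failed one as coming from a rat with congestive heart failure. An age of 19 weeks is given for all samples but the normal H4ac one, whose source label names pre-IP DNA instead. A high-sodium diet is named for the failed mRNA sample alone, and no diet is named for the normal heart. No genotype other than the strain, no drug and no sex is given. Cardiac myocyte markers were bright in both mRNA samples, at log2 levels of 12.24 to 15.34 in the normal heart and 12.95 to 15.23 in the failed heart for the 9 of 10 that were measured. Markers of other cells were also measured in both. On the log2 scale, the summed fibroblast signal (7 genes) was 14.31 in the normal heart and 15.63 in the failed one. The summed macrophage signal (7 genes) was 11.20 and 13.25, the summed endothelial signal (6 of 7 genes) 13.53 and 13.44, and the summed smooth muscle signal (5 genes) 12.45 and 11.22.

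Mitochondria carry their own ribosome, the mitoribosome, which makes the small set of respiratory chain and ATP synthase proteins encoded in mitochondrial DNA. Its ribosomal RNAs come from mitochondrial DNA, but its proteins are all encoded in the nucleus, made in the cytosol and imported. Some of these proteins have a counterpart in the bacterial ribosome, and others were added during mitochondrial evolution. In heart muscle, which is rich in mitochondria, inherited defects of several of these genes are known causes of cardiomyopathy.

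Promoters of the members were compared with those of all genes. In RefSeq's GRCr8 assembly, a window of 300 bases (250 before to 50 after the start) was found for 59 of the 73 genes and for 11700 of all genes on the array. Motifs were searched on both strands. None contains another, but the ETS and YY1 motifs can overlap by the bases AAG. The motif CCGGAAG, the core bound by ETS factors such as GABPA, was present in 20 of the 59 windows (33.9%), against 15.4% of the windows of all array genes and 8.75% of all 33469 windows. The motif bound by the nuclear respiratory factor NRF1, given by the capitals in the NRF1 sites shown, with any base where those capitals differ, was in 9 windows (15.3%), against 8.63% and 4.25%. The motif bound by YY1, given by the capitals that the YY1 sites share, was in 6 (10.2%), against 1.59% and 0.675%. CCAAT was in 27 windows (45.8%, against 38.6% and 37.5%) and the E-box CACGTG in 6 (10.2%, against 9.38% and 6.42%). A match of letters is no evidence that a factor was bound in these hearts.

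The sites of the NRF1 motif are shown for the 2 members with the highest and the 2 with the lowest mRNA difference among its 9 carriers, and for Mrpl44, a cardiomyopathy gene. All 6 sites of the YY1 motif are shown because so few other genes carry it. Each is 30 bases of RefSeq sequence (GRCr8), 5′ to 3′ on the strand of the gene, with the motif in capitals.
Mrps18b, chr20:2842976-2843005, plus strand, NRF1 motif: tccttgtccgGCGCATGCGCagtcgttctt
Mrpl14, chr9:22811215-22811244, minus strand, NRF1 motif: caccactggcGCGCAGGCGCagcgtgcagg
Mrpl44, chr9:88554908-88554937, plus strand, NRF1 motif: agaagcacttGCGCATGCGCactatgctag
Mrps26, chr3:138222343-138222372, plus strand, NRF1 motif: tccggacaggGCGCAGGCGCtagctgtcat
Mrpl32, chr17:55260579-55260608, plus strand, NRF1 motif: tttgacctgtGCGCATGCGCagggaacctg
Mrps27, chr2:32474223-32474252, plus strand, YY1 motif: ggtacgctccAAGATGGCGGCccccatggt
Mrpl50, chr5:68668042-68668071, minus strand, YY1 motif: gagcttgtcgAAGATGGCGGCgctgtgtgt
Mrpl46, chr1:142116987-142117016, minus strand, YY1 motif: ggaagacggaAAGATGGCGGCgcccatagg
Mrps30, chr2:52195867-52195896, minus strand, YY1 motif: gcggaggacaAAGATGGCGGCtgccaggta
Mrps18a, chr9:22367361-22367390, minus strand, YY1 motif: gtgtgttcccAAGATGGCGGCcctcagggc
Mrpl37, chr5:127074942-127074971, minus strand, YY1 motif: tgcccgggcaAAGATGGCGGCgtccaggta

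The YY1 sites all lay just after the start, with the first base of the motif between position 1 (Mrps18a) and position 30 (Mrps27) counted from the start. The NRF1 sites were spread wider, from 132 bases before the start in Mrpl44 to position 30 in Mrps26 among those shown. The GC content of the 59 windows had a median of 56%, against 60% for all array genes. Their ratio of observed to expected CpG had a median of 0.79, against 0.72.

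Many members also have a neighbour that starts nearby on the opposite strand. Whether such pairs share promoter elements was not tested. A gene on the opposite strand started within 1000 bases, head to head, of 18 of the 59 members (30.5%), against 14.6% of the 11700 array genes. Mrps11 and Mrpl46 form such a pair with each other, with starts 234 bases apart.

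The mRNA of most members was modestly higher in the failed heart. The signal of 70 of the 73 genes was higher there, against 57.4% of all genes on the array, and the median difference (failed minus normal) was 0.66 on the log2 scale, against 0.15 for all genes. The differences lay close together: their SD over the 73 genes was 0.40 on the log2 scale, against 0.95 over all genes, and the middle of the distribution ran from 0.41 to 0.87 (quartiles). All genes include many dim ones, with 864 at the lowest value allowed in the normal heart and 984 in the failed one. Few of the members' differences were large. Of the 72 members whose mean level over both mRNA arrays reached the median of all probe sets (called the level filter here), 12 had a signal in the failed heart that was at least 2-fold higher, where the share over all 9317 genes that passed was 11.8%. None was at least 2-fold lower, where the share over all genes was 3.14%. The share past 2-fold higher was thus near the background, while nearly all members had part in the shift of the median.

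**Figure D1:**
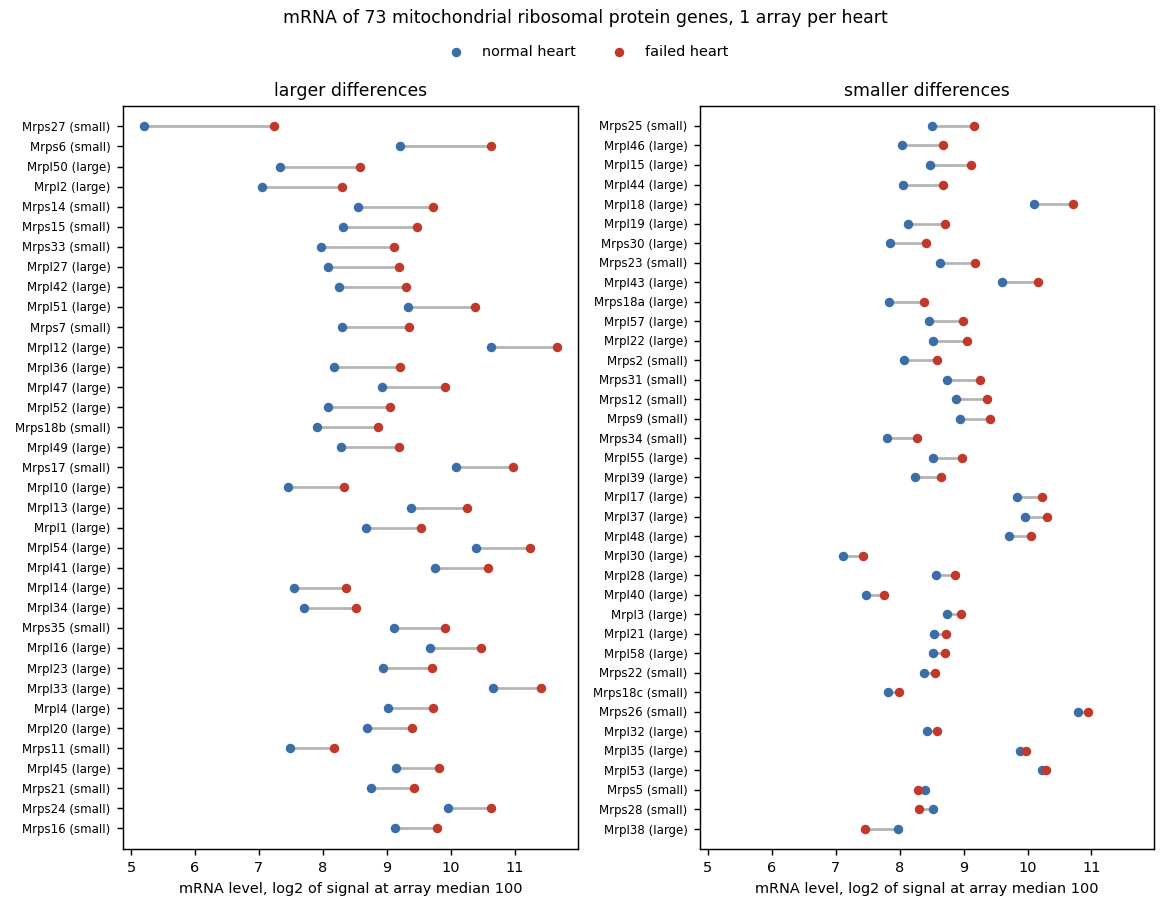
mRNA level of each of the 73 genes in the normal (blue) and failed (red) heart, as log2 of the signal with each array rescaled to a median of 100, with 1 array per heart and genes ordered by their difference. In 70 genes the red point lies to the right of the blue one, and only Mrpl38, Mrps28 and Mrps5 run the other way.

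The size of this shift depended on how the arrays were scaled. Without rescaling, the median over the members was 0.39 on the log2 scale (all genes -0.08), 61 members were above 0 (45.1% of all genes), and 1 of the 72 that passed the filter was at least 2-fold higher, against 6.10% of all genes. After quantile normalization of all 20 arrays the median was 0.26 (all genes 0.01), 60 members were above 0 (50.4% of all genes) and none was past 2-fold higher, against 2.06% of all genes. Quantile normalization of the mRNA arrays alone, added after the data were seen, gave 0.40 (all genes 0.00) with 60 members above 0 (49.3% of all genes) and 3 past 2-fold, against 6.22%. A floor of 50 left the median at 0.66 (all genes 0.03), with 70 members above 0 (51.4% of all genes) and 12 past 2-fold higher (11.9%). The median of the members exceeded that of all genes by 0.26 to 0.63 in the settings run. No member that passed the filter was 2-fold lower in any of them, against 6.86% of all genes without rescaling, 1.39% after quantile normalization of all arrays, 5.7% after that of the mRNA arrays alone, 3.26% with a floor of 50 and 3.36% with the mean of a gene's probe sets.

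**Figure D2:**
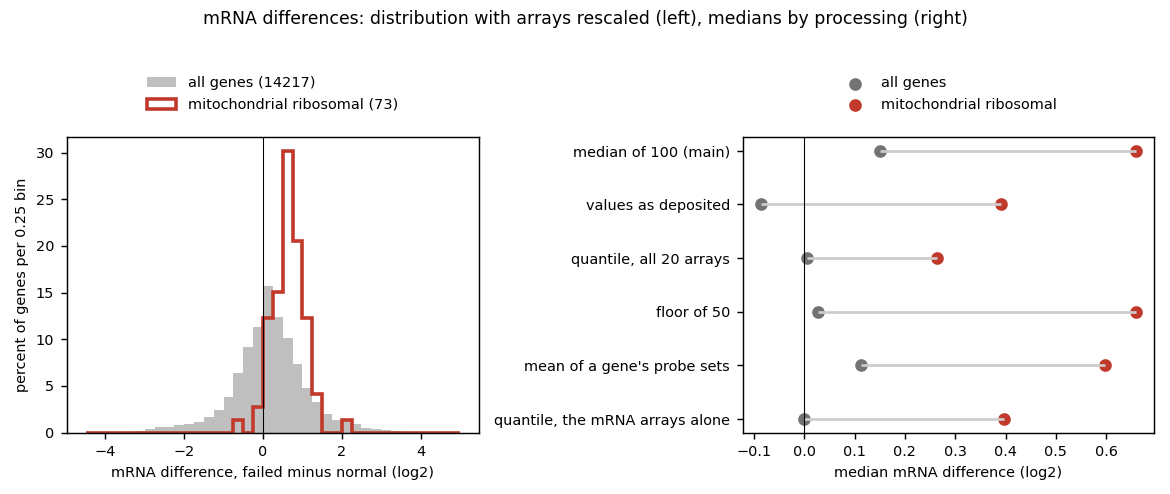
Left, percent of genes per bin of the mRNA difference (failed minus normal, log2) for all 14217 genes (grey) and the 73 genes (red); right, the median difference of both sets under each way of processing. The red distribution is narrow and centred at 0.66 on the left, and on the right its median stays above that of all genes, from 0.26 to 0.66.

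Bright genes as a whole were higher in the failed heart, and the members are bright. Their median log2 level was 8.52 in the normal heart and 9.19 in the failed one, against 7.49 and 7.62 for all genes. When all genes were divided into 10 groups by mean mRNA level, the median difference of all genes went from 0.14 in the sixth and seventh groups to 0.54 in the brightest. The members of these groups had medians of 0.69 (9 genes), 0.56 (15 genes), 0.64 (23 genes), 0.72 (13 genes) and 0.75 (11 genes), from the sixth to the brightest. In all, 62 of the 73 members lay above the median of their own group. The shift of the members over all genes was therefore smaller among the brightest genes, at 0.75 against 0.54, than in the middle of the range.

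Other measures differed between the mRNA arrays too. The 3′ probes of the GAPDH control were 11.3 times as bright as its 5′ probes in the normal heart and 22.6 times in the failed one. For the beta-actin control these ratios were 18.2 and 12.4, and for the Hexokinase control 0.148 and 0.447. The ratio was thus higher in the failed heart for GAPDH and Hexokinase and lower for beta-actin. The summed fibroblast and macrophage signals given above were higher in the failed heart and the smooth muscle signal was lower. The part of these in the mitoribosome result was not tested. In such tissue samples a different number of cells of a type and a different amount of mRNA per cell cannot be told apart.

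Other large sets of ribosomal and mitochondrial genes had medians of a similar size. The 47 cytosolic ribosomal protein genes had a median difference of 0.73 with 39 above 0, and the 77 respiratory chain and ATP synthase genes a median of 0.84 with 72 above 0 (both log2). Without rescaling these medians were 0.46 and 0.57. After quantile normalization of all arrays they were 0.10 and 0.27, beside 0.26 for the mitoribosome.

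Members of both subunits were among those past 2-fold, where the share over all genes was 11.8%. The 48 large subunit genes ranged from -0.53 to 1.26 with a median of 0.64, and 7 were at least 2-fold higher. The 25 small subunit genes ranged from -0.22 to 2.03 with a median of 0.66, and 5 of the 24 that passed the filter were at least 2-fold higher. The 42 proteins with a bacterial counterpart had a median of 0.68, with 8 past 2-fold. The 31 proteins found only in mitochondrial ribosomes had a median of 0.56, with 4 of 30 past 2-fold. The SD over genes was 0.35 in the large subunit, 0.49 in the small one, 0.37 with and 0.45 without a bacterial counterpart.

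In the large subunit, Mrpl12 forms the stalk that calls translation factors to the ribosome. Its mRNA level was 10.63 in the normal heart and 11.66 in the failed one (log2), a difference of 1.04, or 2.05-fold. It was the member with the highest mean signal, although brightness of different probes gives no order of abundance. Mrpl2 and Mrpl27 sit near the centre where peptide bonds are made. The level of Mrpl2 was 7.04 in the normal heart and 8.29 in the failed one (log2), a difference of 1.25. That of Mrpl27 was 8.08 and 9.19, a difference of 1.12. The mitochondria-specific Mrpl50 went from 7.32 in the normal to 8.59 in the failed heart, a difference of 1.26, the largest of the large subunit, and Mrpl42, of the same class, from 8.26 to 9.31, a difference of 1.05. These values are those of the chosen probe sets. Mrpl12 and Mrpl50 each have a second probe set that passed the level filter, and these gave 0.016 and 0.018. The mean of the probe sets was 0.53 for Mrpl12 and 0.64 for Mrpl50, both below 2-fold.

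Mrpl3, by contrast, was near equal in both hearts. Mrpl3 lies close to the catalytic centre as well, and its inherited defects cause cardiomyopathy. Its level was 8.74 in the normal heart and 8.96 in the failed one (log2), a difference of 0.22. Mrpl44, an RNase III-like protein that is likewise a cardiomyopathy gene, was at 8.06 and 8.67, a difference of 0.62, close to the median of the members. Mrpl58, a peptidyl-tRNA hydrolase built into the large subunit, was at 8.53 and 8.71, a difference of 0.18.

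A few large subunit genes showed no higher signal or nearly none. Mrpl38, a mitochondria-specific protein of the central protuberance, was at 7.98 in the normal heart and 7.45 in the failed one (log2), a difference of -0.53, the lowest of all members. Its difference stayed between -0.38 and -0.79 in every setting run. Mrpl53 was at 10.23 and 10.30 (difference 0.06), Mrpl35, a protein with a bacterial counterpart, at 9.88 and 9.97 (0.09), and Mrpl32, which is processed by a protease of the inner membrane on import, at 8.43 and 8.59 (0.16). The bright genes Mrpl33 (10.66 and 11.41, difference 0.75) and Mrpl54 (10.39 and 11.23, difference 0.85) lay in the upper part of the common range. The small values depend on scaling: Mrpl3, Mrpl32, Mrpl35, Mrpl53 and Mrpl58 were below 0 without rescaling (-0.05 to -0.20) and after quantile normalization of all arrays (-0.015 to -0.26).

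In the small subunit the largest difference among members that passed the level filter was that of Mrps6, a counterpart of a bacterial small subunit protein. Its level was 9.20 in the normal heart and 10.63 in the failed one (log2), a difference of 1.43, or 2.70-fold. Mrps14, another protein with a bacterial counterpart whose inherited defects can affect the heart, was at 8.55 and 9.71, a difference of 1.17. Mrps15 was at 8.31 and 9.48 (difference 1.17), and the mitochondria-specific Mrps33 at 7.97 and 9.11 (1.14). These are values of the chosen probe sets, and the mean of the probe sets was 0.92 for Mrps14 and 0.24 for Mrps15, both below 2-fold. Mrps17 was bright in both hearts, at 10.08 and 10.98, a difference of 0.90.

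Mrps12, a protein of the decoding centre, was at 8.88 in the normal heart and 9.37 in the failed one (log2), a difference of 0.49, within the common range. Other small subunit genes differed less. Mrps22, in which inherited defects cause cardiomyopathy among other signs, was at 8.38 and 8.56, a difference of 0.18. Mrps26 was bright and nearly level at 10.79 and 10.95 (0.16), and Mrps18c was at 7.82 and 7.98 (0.16). Without rescaling these 3 were below 0, at -0.088 for Mrps22 and -0.11 and -0.10 for Mrps26 and Mrps18c. Mrps28 and Mrps5 had the only signals below those of the normal heart. Mrps28 was at 8.52 and 8.30, a difference of -0.22, and Mrps5 at 8.40 and 8.29, a difference of -0.11. Both stayed below 0 in every setting run, between -0.22 and -0.49 for Mrps28 and between -0.11 and -0.38 for Mrps5.

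Mrps27, a pentatricopeptide repeat protein of the small subunit, was the single member that did not pass the level filter. Its chosen probe set was at 5.20 in the normal heart and 7.23 in the failed one (log2), the largest difference of all members at 2.03. Its other probe sets gave -0.02 and -2.99, and the mean of all its probe sets gave -0.32, so no direction can be given for this gene.

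The probe set chosen for a gene mattered for the genes that have several. In the 18 genes with 2 or more, the chosen probe sets had a median difference of 0.77 (log2). The 24 probe sets not chosen had a median of 0.01, with 12 above 0 and 11 below. Of the 12 of these that passed the level filter, 10 were above 0 and the median was 0.34. The filter uses the mean of both arrays, so a low value in the failed heart itself helps to put a probe set below it.

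The sign differed between probe sets in 8 genes, Mrps27 among them. For Mrpl51 the chosen probe set gave 1.04 and the others -0.51, 0.06 and 1.20. For Mrps15 it gave 1.17 and the other -0.69. The remaining genes had chosen values above 0 and at least 1 other below 0. They were Mrpl37 (0.33, others -0.21 and -0.04), Mrpl52 (0.96, other -0.02), Mrps18c (0.16, others 0.42 and -1.06), Mrps2 (0.51, others -1.31 and -0.93) and Mrps24 (0.66, other -1.61). With the mean of all probe sets of a gene in place of the chosen one, the median over the 73 members was 0.60, 66 were above 0 (56.1% of all genes) and 8 of the 70 that then passed the filter were at least 2-fold higher, against 11.2% of all genes.

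Beside the promoter features, the mRNA differences were as follows. The 9 members with the NRF1 motif had a median difference of 0.53 and the others with a window 0.71 (log2). The medians with and without the ETS motif were 0.60 and 0.69, those for the YY1 motif 0.61 and 0.69, those for CCAAT 0.62 and 0.72, and those for the E-box 0.78 and 0.66. Each of these is a median over genes of the same pair of arrays.

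The head-to-head neighbours of the members had lower mRNA differences than the members. The 12 measured neighbours outside the family had a median mRNA difference of -0.15 (log2), from -0.75 to 0.77, against 0.15 over all genes, and 5 of them were above 0, against 57.4% of all genes. Their members had a median of 0.89, from 0.16 to 2.03, and the member's difference was the higher one in 11 of the 12 pairs. These are values of the chosen probe sets. The 2.03 is that of Mrps27, for which no direction can be given, and the probe sets of Mrpl51 and Mrps18c also differ in sign. Mrpl2 and Klc4, a kinesin light chain, were 1.25 and -0.25. Mrps18b and Ppp1r10, a regulator of a protein phosphatase, were 0.96 and -0.71. Mrpl47 and Ndufb5, a subunit of respiratory complex I, were closer at 0.98 and 0.77. The exception was Mrpl32 with Psma2, a proteasome subunit, at 0.16 and 0.72. The members Mrps11 and Mrpl46, which face each other, were at 7.48 and 8.17, and at 8.04 and 8.68, with differences of 0.69 and 0.65.

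The rest of the mitochondrial translation machinery was more mixed than the ribosomal proteins. The counts at least 2-fold higher are over the genes that passed the level filter, against the same background of 11.8%. The counts above 0 are over all measured genes, against 57.4% of all genes. In none of these lists was a gene that passed the filter at least 2-fold lower, against 3.14% of all genes. The filter uses the mean of both arrays, and Aars2, Mettl17, Mtrf1 and Wars2, all at least 2-fold lower, did not pass it. Of the 7 mitoribosomal subunits known under other symbols, 5 were measured, with a median of 0.58 and 3 above 0. Gadd45gip1 (1.30), Aurkaip1 (0.70) and Chchd1 (0.58) were higher in the failed heart, while Ptcd3 (-0.34) and Dap3 (-0.82), a GTP-binding small subunit protein, were lower. Of 15 measured translation factors of 18, 10 were above 0, 1 of the 13 that passed was at least 2-fold higher, and the median was 0.38. The elongation factors stood at the top of this list. Tsfm was at 7.77 in the normal heart and 8.80 in the failed one (difference 1.03), Gfm1 at 8.24 and 9.23 (0.99) and Tufm at 8.83 and 9.81 (0.98). Gfm2, which works in ribosome recycling, was at 7.37 and 6.70 (-0.68), Mtres1 at 9.41 and 9.24 (-0.17), and the release factor Mtrf1 (-1.27) did not pass the level filter.

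The enzymes that charge mitochondrial tRNAs showed no common direction. Of 18 measured of 24, 8 were above 0, against 57.4% of all genes, and the median difference was -0.08 (log2). Of the 13 that passed the level filter, 1 was at least 2-fold higher. Gars1 (1.18), which serves both cytosol and mitochondria, Yars2 (0.99) and Fars2 (0.82) were the highest. Aars2 (-1.40), Wars2 (-1.12) and Gatb (-0.93), a subunit of the enzyme that makes glutaminyl-tRNA, were the lowest, and none of those passed the level filter. The 26 of 27 measured genes of ribosome assembly and rRNA modification were as mixed, with 15 above 0, near the share over all genes, and a median of 0.08. Of the 24 that passed, 3 were at least 2-fold higher. The RNA helicase Ddx28 (1.36), the GTPase Gtpbp10 (1.31) and the rRNA methyltransferase Tfb1m (1.03) were highest. The GTPase Noa1 (-0.98) and the pseudouridine synthase Rpusd4 (-0.93) were lowest among those that passed, and Mettl17 (-1.33) did not pass.

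Of 22 measured genes of 23 for mitochondrial transcription and RNA handling, 17 were above 0, against 57.4% of all genes, and the median was 0.30. Of the 21 that passed the level filter, 1 was at least 2-fold higher. Lrpprc (1.05), which stabilises mitochondrial mRNAs, and Trmt10c (0.82), a subunit of mitochondrial RNase P, were highest with Top1mt (0.86), a topoisomerase that did not pass the filter. Prorp (-0.50), the catalytic subunit of the same RNase P, Mtpap (-0.54), the poly(A) polymerase, and Polrmt (-0.58), the mitochondrial RNA polymerase, were lowest. The SD over genes was 0.46 to 0.85 in these 5 lists, above the 0.40 of the 73 members. These lists were not matched to the members in mRNA level. In the normal heart the synthetases lay at 5.76 to 8.77 (log2), where the members had a median of 8.52. The part of level in this spread was not tested.

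**Figure D3:**
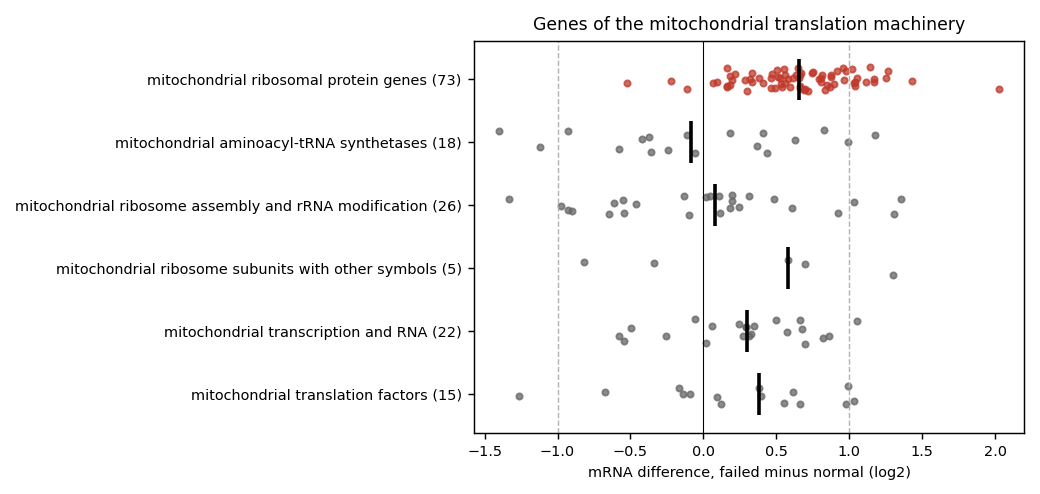
mRNA difference (failed minus normal, log2) of each gene in the mitoribosomal set (red) and in 5 lists of other mitochondrial translation and RNA genes (grey), with a black bar at each median and dashed lines at 2-fold. The 73 genes cluster around 0.66, while the synthetases and assembly genes spread on both sides of 0 with medians of -0.08 and 0.08.

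The ChIP and pre-IP arrays carry transcript probes, so their values describe DNA under the transcribed exons, often the 3′ end, and not promoters. Enrichment subtracts the log2 pre-IP level in a heart from its log2 ChIP level, so the 8 marks of a heart share 1 pre-IP array. At the members, H3 and H4 acetylation were enriched in both hearts. The median H3ac enrichment was 0.53 in the normal heart and 0.46 in the failed one, against 0.05 and 0.04 over all genes. The median H4ac enrichment was 0.39 and 0.28, against 0.06 and 0.01. K4me2 was also above all genes, at 0.26 and 0.35 against 0.04 and 0.05, but its median turned below 0 without rescaling (-0.17 and -0.33, all genes -0.40 and -0.62). The medians of the members exceeded those of all genes in every setting with a pre-IP correction, by 0.19 to 0.50 for H3ac, 0.11 to 0.41 for H4ac and 0.07 to 0.48 for K4me2. Genes that are well expressed tended the same way: over all genes that passed the mRNA level filter the medians were 0.16 and 0.15 for H3ac, 0.17 and 0.14 for H4ac, and 0.04 and 0.09 for K4me2. Respiratory chain and ATP synthase genes had medians of 0.70 and 0.51 for H3ac, 0.43 and 0.25 for H4ac, and 0.52 and 0.59 for K4me2. For the cytosolic ribosomal protein genes these were 0.22 and 0.29, 0.16 and -0.004, and 0.15 and 0.84. The lean to these marks was thus not particular to the members.

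Counted gene by gene, H3ac enrichment was above 0 in both hearts in 43 of the 73 members, against 36.8% of all genes, and below 0 in both in 15, against 31.9%. H4ac was above 0 in both hearts in 45 members, against 37.5%, and below 0 in both in 7, against 32.9%. K4me2 was above 0 in both in 33, against 36.3%, and below 0 in both in 18, against 31.5%. K4me3 was above 0 in both in 24, against 27.7%, and below 0 in both in 17, against 28.9%. The counts for acetylation thus lay above the background among enriched genes and under it among depleted ones, and the K4 marks leaned the same way by less.

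**Figure D4:**
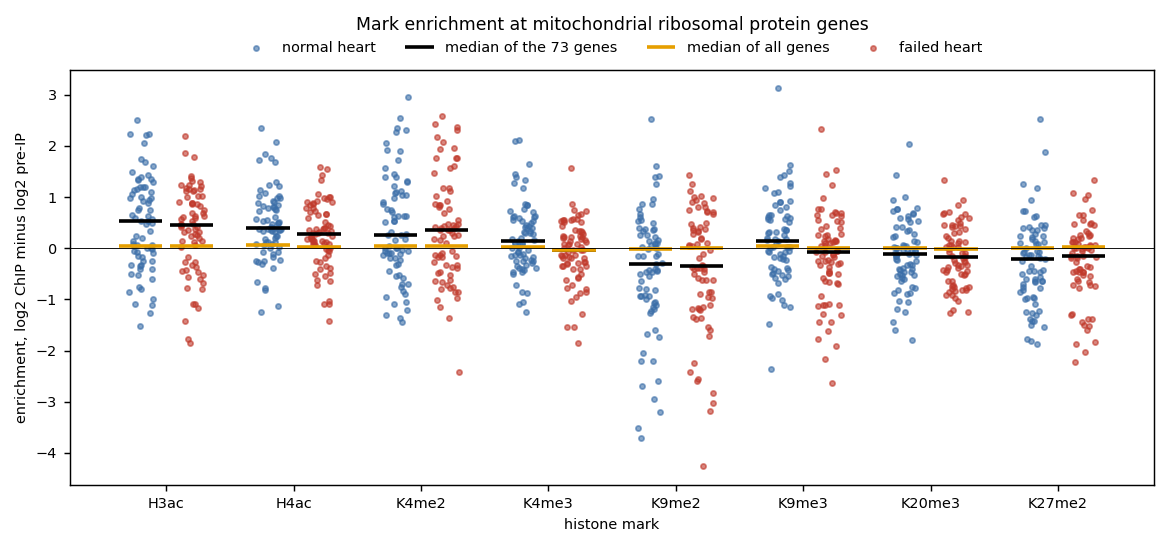
Enrichment (log2 ChIP level less log2 pre-IP level) of the 73 genes for 8 marks in the normal (blue) and failed (red) heart, with black bars at the median of the 73 genes and orange bars at the median of all genes. The black bars lie above the orange ones for H3ac, H4ac and K4me2 and below them for K9me2 (-0.31 and -0.35), K20me3 and K27me2.

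The other methyl marks lay the other way or near the background. The median K9me2 enrichment was -0.31 in the normal heart and -0.35 in the failed one, against -0.02 and 0.00 over all genes, with 21 members above 0 in both hearts, against 32.5%, and 32 below 0 in both, against 33.6%. The median K27me2 enrichment was -0.20 and -0.15 (all genes 0.00 and 0.01), with 20 members above 0 in both, against 33.2%, and 34 below 0 in both, against 32.1%. The median K20me3 enrichment was -0.11 and -0.17 (all genes 0.00 and -0.02), with 16 above 0 in both, against 29.6%, and 29 below 0 in both, against 30.8%. It was 0.02 in the normal heart without rescaling. K4me3 was at 0.14 and -0.03 (all genes 0.02 and -0.04), and K9me3 at 0.13 and -0.08 (all genes 0.03 and 0.00), with 24 above 0 in both for K9me3, against 31.2%, and 22 below 0 in both, against 28.5%. Respiratory chain and ATP synthase genes lay lower in K9me2 (-0.70 and -0.36), K27me2 (-0.73 and -0.64) and K20me3 (-0.54 and -0.38). In these marks the cytosolic ribosomal protein genes were at -0.19 and -0.24, -0.17 and -0.14, and -0.06 and -0.07.

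The ChIP levels before the pre-IP correction show the members as bright DNA on every array. The pre-IP levels themselves had a member median of 7.21 in the normal heart and 7.45 in the failed one (log2), against 6.61 and 6.64 for all genes. Without the correction the members' ChIP levels exceeded the median of all genes on all 16 ChIP arrays, by 0.14 (K27me2, normal heart) to 0.95. Acetylation and K4me2 gave 0.89 to 0.95 and the other marks 0.14 to 0.77, beside the brighter pre-IP DNA of the members. The sign of an enrichment at the members, above or below all genes, therefore cannot be read from the ChIP levels alone.

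The highest values of the active marks belonged to several genes, and Mrps18a alone was among the 2 highest of more than 1 of them, H3ac and H4ac. Mrps34, a small subunit protein, had a K4me2 level of 11.56 in the normal heart and 11.97 in the failed one, beside pre-IP levels of 8.60 and 9.39 (log2). Its K4me2 enrichment of 2.96 and 2.58 was the highest of the members. Its K9me2 levels were 6.57 and 5.14 and its K9me2 enrichment -2.04 and -4.25, the lowest of all in the failed heart. Its K9me3 enrichment was -1.12 and -2.64. The gene that was richest in K4me2 was thus among the poorest in both K9 marks, in both hearts.

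Mrpl36 came next in K4me2, with levels of 10.04 and 10.47, pre-IP levels of 7.76 and 8.10 and enrichment of 2.28 and 2.37. Mrpl34 was high in H4ac, with levels of 11.49 and 11.07 and enrichment of 1.68 and 1.002. Mrpl23, of the exit tunnel region of the large subunit, was high in H3ac, with levels of 7.52 and 8.11 and enrichment of 1.29 and 2.20. The same rule put Mrps18a, a large subunit protein despite its symbol, at the top of H3ac (enrichment 2.50 and 1.03) and H4ac (2.35 and 0.72), where its pre-IP levels of 5.75 and 7.82 differ between the hearts.

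Some members were poor in the active marks. Mrpl46 had H3ac enrichment of -1.09 and -1.16, and its head-to-head partner Mrps11 had the lowest H4ac enrichment, at -1.13 and -1.43. Mrpl50 was at -0.34 and -1.86 for H3ac. Mrps30 was low in H4ac (-1.25 and -0.41) and in K4me2 (-1.36 and -0.86). The lowest K4me3 values were those of Mrpl51 (-1.24 and -1.85) and Mrps28 (-0.50 and -1.54). Other probe sets of Mrpl51 gave K4me3 enrichment of -0.28 and -1.07, 0.61 and 0.44, and 0.40 and -0.645, so its low value is that of the chosen probe set. Mrpl46, Mrps11 and Mrpl51 had mRNA differences of 0.65, 0.69 and 1.04, within the range of the other members.

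Among the other methyl marks, the chosen probe set of Mrpl51 had the steadiest low K9me2, with levels of 4.64 and 4.73 under pre-IP levels of 7.85 and 7.91, an enrichment of -3.20 and -3.19. Its other probe sets were less low, at -1.16 and -1.91, -2.74 and -1.74, and -0.53 and 0.20. Mrpl2 was low in K9me3 (-2.36 and -1.78). Mrpl57 and Mrps18b were the lowest in both K20me3 (Mrpl57 -1.24 and -1.27, Mrps18b -1.79 and -0.80) and K27me2 (Mrpl57 -1.77 and -2.03, Mrps18b -1.42 and -2.22). At the other end, Mrps35 (1.60 and 0.91) and Mrpl40 (1.40 and 0.93) were highest in K9me2, Mrps24 in K9me3 (1.52 and 2.34), Mrpl44 in K20me3 (1.43 and 0.54) and Mrpl39 in K27me2 (1.26 and 0.55), beside Mrps15, which is described with the pre-IP values. The second probe set of Mrps24 gave K9me3 enrichment of only -0.03 and 0.23. Those of Mrpl40 and Mrpl57 kept the sign in the marks named here.

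The order of the members was kept between the hearts for some marks more than for others. Across the 73 genes Spearman's rho between the hearts was 0.69 for H3ac, 0.66 for K4me2, 0.57 for K27me2, 0.53 for H4ac, 0.49 for K9me2, 0.39 for K9me3, 0.33 for K20me3 and 0.13 for K4me3. Over all genes it was 0.53, 0.51, 0.44, 0.56, 0.45, 0.30, 0.30 and 0.20, in the same order. Genes are not independent replicates, and each heart's values share 1 pre-IP array, so these are descriptions.

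The DNA before immunoprecipitation gives the background of the comparisons between the hearts. Of the 52 members that passed the level filter there, 3 were at least 2-fold higher in the failed heart, against 3.96% of all genes, and none was 2-fold lower, against 3.53%. The median difference was 0.09, against 0.01 over all genes (log2). The lowest values were those of Mrpl40 (-0.91) and Mrpl18 (-0.88). The 3 members past 2-fold that passed were Mrps18a at 5.75 and 7.82 (2.07), Mrps12 at 6.12 and 7.29 (1.17) and Mrpl58 at 6.38 and 7.45 (1.07).

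The largest pre-IP differences belonged to members too dim to pass. Mrps15 was at 3.47 in the normal heart and 6.12 in the failed one, a difference of 2.65, and its second probe set likewise at 3.32 and 5.80. Mrps9 was at the floor of 3.32 in the normal heart and at 5.74 in the failed one, so that its difference of 2.42 is a lower bound. Its second, brighter pre-IP probe set was at 6.79 and 7.23. Mrps9 was at the floor as well on the H3ac, H4ac, K4me2 and K20me3 arrays of the normal heart and on the K4me2 and K9me2 arrays of the failed one, whereas the ChIP levels of Mrps15 in the normal heart were 5.50 to 6.59 for all marks but K9me2, which was at the floor.

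These differences carried over into the enrichment. The ChIP levels differed less between the hearts: averaged over the 8 marks, by 0.67 for Mrps15, 0.05 for Mrps9 and 0.75 for Mrps18a (log2). The enrichment was 2-fold or more below that of the normal heart for 7 marks in Mrps15 and for 6 in Mrps18a. In Mrps9 it was so for all 8, but its normal enrichment for H3ac, H4ac, K4me2 and K20me3 is the floor less the floor, which carries no value, and its K4me2 difference of -2.42 is that of the pre-IP with the sign turned. With no level filter, the 5 members whose pre-IP was at least 2-fold higher (9.38% of all genes) held 23 of the 74 values at least 2-fold lower among all 584 pairs of a member and a mark, and none of the 38 values at least 2-fold higher. Without Mrps9, a count added after the data were seen, the other 4 held 15 of 66 values at least 2-fold lower. Over all genes, 14.6% of such values were at least 2-fold lower and 12.5% higher. Enrichment subtracts the pre-IP level, so a higher pre-IP level by itself lowers the enrichment of these 5 members. Each mark's difference is given below also without them. Members with lower pre-IP in the failed heart, such as Mrpl40 (-0.91), were kept. Leaving out this 1 end raised the median of every mark, so it is no check in both directions.

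**Figure D5:**
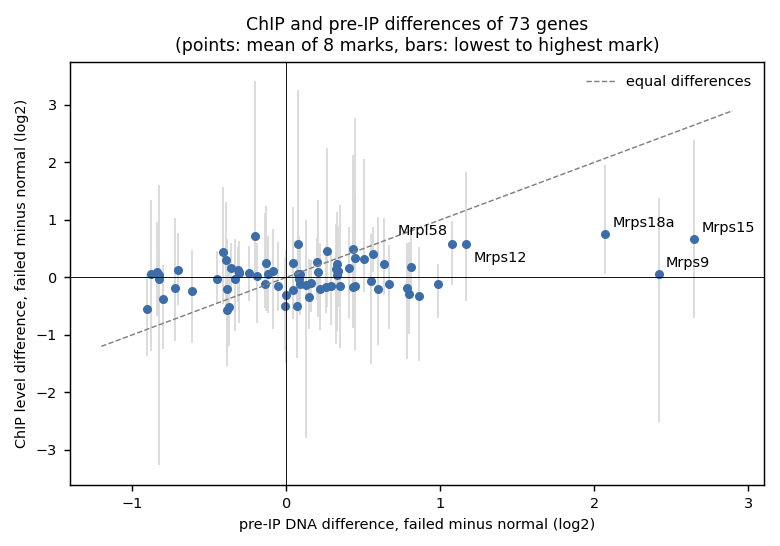
Difference between the hearts (failed minus normal, log2) in pre-IP DNA (horizontal) and in ChIP level (vertical, point at the mean of the 8 marks and bar from the lowest to the highest mark) for the 73 genes, with a dashed line where both are equal. Mrps15, Mrps9 and Mrps18a lie far to the right at 2.07 to 2.65 but near the other genes in height, with means of 0.05 to 0.75.

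For the marks above all genes at the members, the medians of the difference between the hearts lay between -0.18 and 0.04. For H3ac the median difference (failed minus normal) was -0.01 over the members, -0.03 over all genes and 0.03 over the members without those 5. Of the 58 members that passed the level filter over the 4 arrays, 2 were at least 2-fold higher, against 10.7% of all genes, and 7 at least 2-fold lower, against 8.65%. Mrpl21 had the largest positive H3ac difference at 1.58, with ChIP levels of 5.57 and 6.74 and enrichment of -0.997 and 0.59. It did not pass the level filter for H3ac. For H4ac the median was -0.18, against -0.08, or -0.10 without the 5 members. The H4ac difference was above 0 in 27 of the 73 members, against 45.3% of all genes. Of the 57 that passed, 1 was at least 2-fold higher, against 4.91%, and 5 at least 2-fold lower, against 6.49%. Mrpl28 had the largest positive H4ac difference at 1.24, from -0.26 to 0.98. Its H4ac levels were 6.63 and 7.05, beside a pre-IP difference of -0.82. Mrps15, which did not pass the level filter for H4ac, had the largest negative one at -1.998, from 2.07 to 0.08. For K4me2 the median was 0.04, against 0.07, or 0.17 without the 5 members, with 5 of 56 higher, against 11.6%, and 3 lower, against 6.66%. Mrpl20 was the highest there, with levels of 8.70 and 9.73, enrichment of -0.18 and 1.57 and a difference of 1.75.

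K4me3 and K9me3 had medians further below 0. For K4me3 the median difference was -0.30, against -0.05 over all genes, and -0.20 without the 5 members. In 30 of the 73 members it was above 0, against 47.6% of all genes. Of 56 members that passed, 9 were at least 2-fold lower, against 9.84%, and 2 at least 2-fold higher, against 8.89%. For K9me3 the median was -0.29, against -0.06, and -0.24 without the 5 members. Only 22 of the 73 members were above 0, against 47.3% of all genes. Of the 55 that passed, 9 were at least 2-fold lower, against 11.4%, and 1 at least 2-fold higher, against 9.14%. The respiratory chain and ATP synthase genes had a K9me3 median of -0.45 and the cytosolic ribosomal protein genes one of -0.28, so those sets had medians below 0 as well.

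Single members stood out in each of these marks. Mrpl3 had the largest positive K4me3 difference at 1.37, with levels of 6.93 and 8.17 and enrichment of -0.71 and 0.66. Mrps9 had the most negative at -3.40, with levels of 5.44 and 4.46 and its pre-IP in the normal heart at the floor. It did not pass the level filter for K4me3, and its second probe set gave a difference of -0.63. For K9me3, Mrpl28 was the highest, with levels of 5.996 and 7.60, enrichment of -0.90 and 1.53 and a difference of 2.42. Mrps15 was the lowest at -3.36, with levels of 6.59 and 5.88, and did not pass the level filter for K9me3. Without a pre-IP correction the K4me3 count past 2-fold in either direction was 2 in place of 11, a count with no share over all genes beside it.

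K9me2 spread most. The median K9me2 difference was 0.02, against 0.01 over all genes, or 0.11 without the 5 members. Of 53 members that passed, 7 were at least 2-fold higher, against 16%, and 5 at least 2-fold lower, against 9.3%. Mrpl37 had the largest positive difference of any mark at 3.62, with K9me2 levels of 4.87 in the normal heart and 8.29 in the failed one. Its pre-IP levels were 7.07 and 6.86. Its other probe sets did not share this value. They gave K9me2 enrichment of -1.24 and -0.52 (difference 0.72) and of -0.71 and -3.26 (difference -2.55), so no direction can be given for K9me2 at this gene. Mrps9 had the most negative at -4.93, with levels of 5.84 and, at the floor, 3.32. It did not pass the level filter for K9me2, and its second probe set gave a difference of -1.13.

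For K20me3 the median difference was -0.10, against -0.03, or -0.07 without the 5 members, with 5 of 52 members higher, against 8.91%, and 1 lower, against 8.56%. Over all 73 members, Mrpl4 was the highest at a difference of 1.98 and Mrps15 the lowest at -1.88. The K20me3 levels of Mrpl4 were 4.13 and 6.38 and its enrichment -1.61 and 0.38. Neither gene passed the level filter for K20me3. For K27me2 the median was 0.02, against -0.01, or 0.05 without the 5 members, with 2 of 52 higher, against 6.83%, and 1 lower, against 6.38%. Mrpl28 was again the highest of all members, with levels of 5.59 and 7.11, enrichment of -1.30 and 1.04 and a difference of 2.35. Mrps15 was the lowest at -2.52. Neither gene passed the level filter for K27me2. The pre-IP level of Mrpl28 was 6.89 in the normal heart and 6.07 in the failed one, and its K9me2 level went the other way, from 6.75 to 3.48.

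The differences in marks and in mRNA were weakly related at most among the members. Across the 73 genes Spearman's rho between the difference in a mark and the difference in mRNA lay between -0.21 (K4me2) and 0.16 (K20me3), and over all genes between -0.02 and 0.02. Mrps6, with the largest mRNA difference among members that passed the filter, is named by none of the rules for the marks. Mrpl28, with the largest positive difference in H4ac, K9me3 and K27me2, had an mRNA difference of 0.30, below the median of the members. The pre-IP difference of Mrpl28, -0.82, enters each of those mark differences.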

How the data were processed

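The authors deposited 1 intensity per probe set and array (Affymetrix Rat Genome 230 2.0; 20 arrays, 31099 probe sets, 57 of them controls). No source used here gives the summarising software. Per the labels' protocols, mRNA was amplified and labelled as cDNA, and ChIP and pre-IP DNA was amplified by in vitro transcription. The deposited intensities have a trimmed mean (2% off each end) of 500.0 on every array, with medians from 189 to 415; sequencing depth does not apply, and the number of arrays limits the precision. Array medians were set to 100, a floor of 10 was applied and log2 was taken. Of the probe sets, 20826 belong to a single gene, 436 to several and 9780 are not listed in the annotation. All 73 member gene IDs were matched to current symbols. Counts past 2-fold use genes whose mean log2 level over the arrays compared reached the median over all probe sets. No test was run, with 1 array per group. Scripts used Python 3.11.15, NumPy 2.4.6, pandas 2.3.3, SciPy 1.17.1 and Matplotlib 3.10.9 and were tested on simulated data.

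Genes were named by rule. For mRNA these were the 8 largest differences each way, the 5 brightest members and 7 preset members (Mrpl3, Mrpl44, Mrps22, Mrps14, Mrpl12, Mrps12, Mrpl58). For each mark they were the 2 highest and 2 lowest in mean enrichment and the largest difference each way. For pre-IP they were the 2 largest each way, and for the lists up to 3 each way. Members whose probe sets differ in sign were named too. Mrps18a, Mrps12 and Mrpl58 in pre-IP, Mrpl47, Mrps18b and Mrpl32 among the gene pairs, and other comparisons of named members across marks were chosen after their values were seen. The members and lists were chosen with earlier results of these data known. The alternatives were no rescaling, quantile normalization, a floor of 50, the mean of a gene's probe sets, no level filter and no pre-IP correction.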

Additional observations from a re-analysis of the deposited data

How the results depend on the processing

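Values were called moved when a median left the 95% order-statistic interval of the main median over the members, or a count changed by over 1.5 times. Of 211 values of medians and counts under an alternative, 159 kept within these limits, 51 moved and 1 reversed. A floor of 50 moved none of 39. The median mRNA difference was 0.39 without rescaling, 0.26 after quantile normalization and 0.40 after quantile normalization of the mRNA arrays alone, and the count at least 2-fold higher was 1, 0 and 3 in place of 12. The median mRNA level over that of all genes was 0.69 (normal) and 0.97 (failed) after quantile normalization and 1.44 and 1.90 with the mean of a gene's probe sets, in place of 1.03 and 1.58. Without rescaling, median enrichment was 0.070 for failed H3ac, 0.12 and 0.066 for H4ac (normal, failed) and -0.17 and -0.33 for K4me2; after quantile normalization it was 0.20 for failed H3ac and 0.20 and 0.12 for H4ac. Without pre-IP the medians over that of all genes were 0.91 and 0.89 for H3ac (normal, failed), 0.95 and 0.92 for H4ac, 0.91 and 0.95 for K4me2, 0.58 and 0.60 for K4me3, 0.37 and 0.56 for K9me2, 0.77 and 0.56 for K9me3, 0.65 and 0.57 for K20me3, and 0.14, reversed from -0.20, and 0.55 for K27me2. This follows from the members' brighter pre-IP DNA. With no level filter, the counts past 2-fold either way were 15 for H3ac, 10 for H4ac, 13 for K4me2, 17 for K4me3, 21 for K9me2, 16 for K9me3, 12 for K20me3, 8 for K27me2 and 5 for pre-IP, in place of 9, 6, 8, 11, 12, 10, 6, 3 and 3, since dimmer members were then counted. Over the 8 marks together, these unfiltered values were 38 higher and 74 lower of 584, against 12.5% and 14.6% over all genes. The 5 for pre-IP were all higher, against 9.38%. Without pre-IP the counts past 2-fold either way were 4 for H3ac, 0 for H4ac, 3 for K4me2, 2 for K4me3, 5 for K9me2 and 3 for K20me3. After quantile normalization they were 17 for K9me3, 12 for K20me3 and 5 for K27me2. These 2 groups of counts have no share over all genes beside them and show only how the members' counts moved. Of 200 mRNA values of single genes under an alternative, 151 kept their sign and their side of 2-fold and 48 moved (20 after quantile normalization, 19 without rescaling, 9 with the mean of probe sets). Mrps27 reversed to -0.32 with the mean of its probe sets. Signs turned for 13 genes, among them Mrps2 (-0.58) and Mrps24 (-0.47) with the mean of probe sets, and Mrpl12 was at 0.36 after quantile normalization. For the other moved values the cause was not tested.

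No paired analysis was possible because each group is 1 array. Leaving out members at the floor on any array, added after the data were seen, left 71 members and moved none of 9 values. No array was left out, and the probes lie in transcripts, so promoters were not measured.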
